A study of Mus musculus and Homo sapiens with 18 samples.

Results

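In human 293FT cells, EMX1-sg1 sites at least 2500 bp wide were examined on the autosomes other than 4, 13, 17, 18, 19 and 22. Catalytically inactive Cas9 (dCas9) with an HA tag was pulled down by anti-HA ChIP and the bound DNA was sequenced (ChIP-seq), and each site is a peak of the authors' list. The rule, end minus start of 2500 bp or more (hg19), took 1052 of the 12547 peaks on these 16 chromosomes, out of 18042 EMX1-sg1 peaks in all. The 11495 peaks under 2500 bp on the same chromosomes are called narrower. The EMX1-sg1 cells had been transfected with 20 ug of that sgRNA. EMX1-sg3, another guide for the same gene, was given to 293FT cells at the same amount, and the control cells had no treatment. The labels do not say whether the control cells carried dCas9. From the control cells came a no-sgRNA immunoprecipitate (IP) and an input without antibody. The title of the EMX1-sg1 sample calls it transient, and the labels give no amount of dCas9 plasmid. 293FT is a transformed embryonic kidney line, and each of the 4 groups was 1 library. The series holds 18 samples, most of them from mouse cells, which were not used here.

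Cas9 scans DNA for a short protospacer-adjacent motif (PAM) and then pairs its guide with the adjoining strand, beginning at the PAM-proximal seed. dCas9 keeps this search and pairing without cutting, and pairing with the seed alone can hold it at places that match the rest of the guide poorly. Binding to such places is known to occur more often in accessible chromatin. A peak gives the span over which fragments piled up, not the base at which the guide paired. No hg19 sequence or gene annotation was used here, so sites are given by position, without protospacers or genes.

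The members were chosen by width, so width is a description only. Wide sites ran from 2500 to 7985 bp with a median of 3011 bp (quartiles 2688 and 3533 bp), and narrower peaks from 282 to 2499 bp with a median of 955 bp. Of the wide sites 521 were under 3000 bp, 408 had 3000 bp to under 4000 bp and 123 had 4000 bp or more. They were 8.38% of the peaks (exact Clopper-Pearson 95% interval 7.91 to 8.88%) and covered 3.41 Mb, 21.2% of the 16.1 Mb under all peaks of these chromosomes. No peaks of the list overlapped on these chromosomes. The 3 sites just inside had widths of 2500, 2500 and 2501 bp and scores of 233.03, 235.24 and 512.95. The 3 just outside each had 2499 bp, with scores of 393.10, 60.11 and 190.65.

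The widest site was on chromosome 5 between 92914340 and 92922324, with a score of 210.57. It had 3 other peaks within 1 Mb, all 3 of them also within 100 kb, and the nearest lay 5.43 kb away. The next widest lay on chromosome 10 between 77158050 and 77165838 (7789 bp, score 640.44), flanked by peaks at 0.402 and 1.29 kb. A site on chromosome 1 between 873225 and 881005 (7781 bp, score 558.00) had 85 peaks within 1 Mb. The other members of the widest 5 lay on chromosome 15 between 75741789 and 75749473 (7685 bp, score 1136.26) and on chromosome 16 between 85643831 and 85651215 (7385 bp, score 356.38). Great width thus occurred both in thinly and in densely occupied stretches of the genome. The widest site of a chromosome measured 7985 bp on chromosome 5 and 3784 bp on chromosome 21, the extremes among the 16. Chromosomes 7, 2 and 6 had theirs between 5462773 and 5469813 (7041 bp, score 244.13), 60776154 and 60783499 (7346 bp, 93.66) and 32935032 and 32941955 (6924 bp, 240.66). On chromosomes 8, 12 and 14 they lay between 37551827 and 37557574 (5748 bp, 312.48), 4379661 and 4384923 (5263 bp, 1012.08) and 103983771 and 103988968 (5198 bp, 1208.73). On chromosomes 3, 11 and 9 they lay between 71630057 and 71634925 (4869 bp, 282.89), 65188384 and 65193183 (4800 bp, 911.82) and 139437367 and 139442086 (4720 bp, 323.91), and that of chromosome 21 between 47742064 and 47745847 scored 85.20. Great width also occurred at low score: the widest on chromosome 20, between 61804643 and 61811294 (6652 bp), scored 52.07 and had 144 peaks within 1 Mb.

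The authors' peak score went with the running number in the peak names, and it is described in that light. Ordered by chromosome name as text and by position, the numbers broke into 11 stretches. A new stretch began wherever a number fell back or jumped by more than 40. The break on chromosome 11 shows what changed there. Before it, between 195036 and 59326053, 30 wide sites scored 53.27 to 230.74 with a median of 113.34, and after it, between 60114817 and 134939047, 57 wide sites scored 150.47 to 1393.80 with a median of 559.94. Narrower peaks had medians of 77.56 before and 133.72 after the break. Widths differed far less across it: the wide share was 7.92% before and 9.48% after, wide sites had median widths of 2789 and 3106 bp, and narrower peaks 1008 and 1004 bp. The stretch that opened at this break, with names numbered 10007 to 16380, ended on chromosome 14 at 104009583. On chromosome 14 the 34 wide sites before that end had a median score of 746.12 and the 17 after it 219.17.

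**Figure D1:**
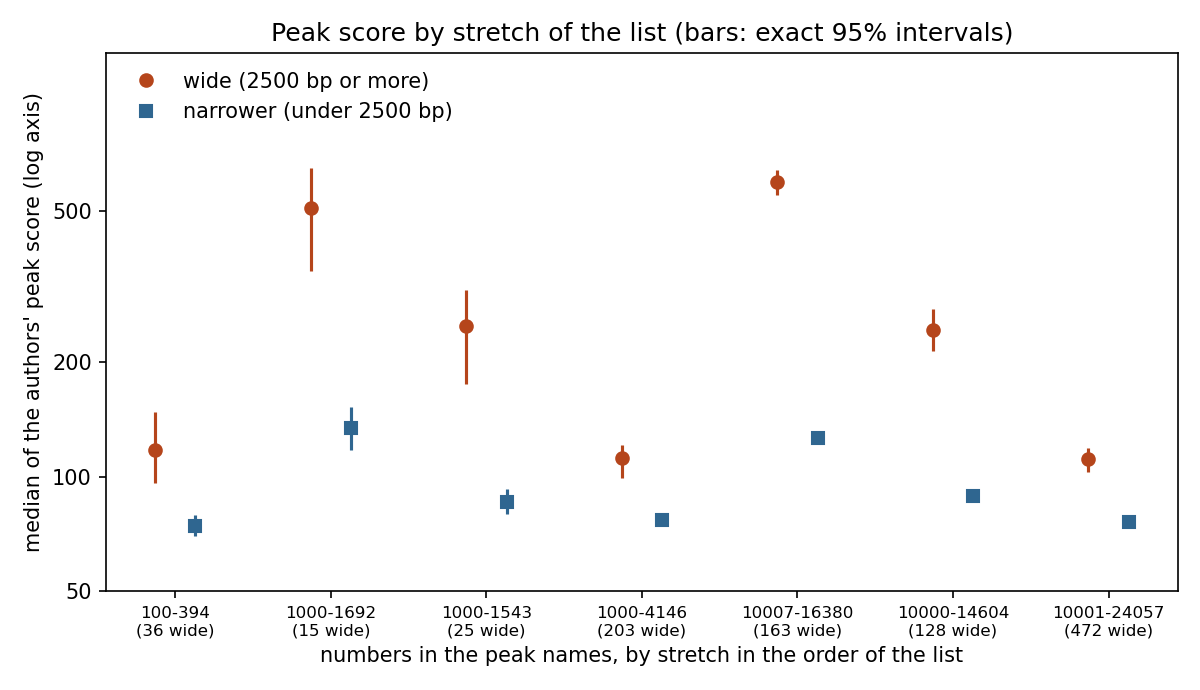
Median of the authors' peak score (log axis) of wide sites (circles) and narrower peaks (squares) in the 7 stretches of running peak numbers with at least 10 wide sites, in the order of the list, with exact 95% intervals of the median. Wide sites had a median of 595.07 in the stretch numbered 10007 to 16380 and of 111.46 in the one numbered 10001 to 24057, while narrower peaks had 126.65 and 76.01.

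Wide sites had higher scores than narrower peaks in each of the 4 large stretches, by very different ratios. Score and width come from the same peak calls, so this contrast is tied to the choice of members and is a description only. These 4 stretches held 11748 of the peaks and 966 of the wide sites. In names 1000 to 4146 (chromosome 1 to 11) the median was 111.88 for 203 wide sites and 76.97 for narrower peaks, a ratio of 1.45. In names 10007 to 16380 it was 595.07 for 163 wide sites and 126.65 for narrower peaks, a ratio of 4.7. In names 10000 to 14604, which ran on to chromosome 17, it was 242.74 for 128 wide sites and 89.16 for narrower peaks, a ratio of 2.72, and in names 10001 to 24057 it was 111.46 for 472 and 76.01, a ratio of 1.47. The rank correlation of width and score over peaks was 0.32, 0.80, 0.58 and 0.31 in the same order. These peaks share 1 library, and the correlations are descriptions. The listed peaks made up 72.7%, 32.0%, 51.8% and 74.9% of the numbers spanned, so the stretches with higher wide scores were also those with more numbers missing. The part of the list's preparation in this was not tested. Scores may therefore not be comparable between stretches, and ranks or shares by score over the whole list are given with that limit. Shorter stretches at the start of chromosome 1 differed likewise: wide sites had medians of 117.83 (36 sites), 509.72 (15 sites) and 248.59 (25 sites) in names 100 to 394, 1000 to 1692 and 1000 to 1543.

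All 10 of the highest-scoring wide sites lay in the stretch from chromosome 11 to 14, as did 85 of the top 100 wide sites, although it held 163 wide sites, 15.5% of them. The highest was on chromosome 12 between 31269995 and 31273523 (3529 bp, score 2927.50), with 5 peaks within 1 Mb and the nearest 248.7 kb away. The next was on chromosome 14 between 24834515 and 24839337 (4823 bp, 1651.22). Chromosome 14 also held the sites between 64969069 and 64972770 (3702 bp, 1487.37), 55031529 and 55035382 (3854 bp, 1427.97), 23769734 and 23772350 (2617 bp, 1345.23), 103056667 and 103060446 (3780 bp, 1260.13) and 103983771 and 103988968 (5198 bp, 1208.73). The remaining 3 were on chromosome 11 between 63992439 and 63995293 (2855 bp, 1393.80) and between 67138626 and 67142535 (3910 bp, 1217.78) and on chromosome 12 between 57479533 and 57484394 (4862 bp, 1380.34). Their surroundings ranged from 5 peaks within 1 Mb at the highest to 94 at the first of the chromosome 11 sites. Outside that stretch the highest wide score was 1136.26, at the chromosome 15 site named above. There, wide sites had a median of 128.51 and narrower peaks of 78.93, a ratio of 1.63.

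Measured from edge to edge, wide sites lay somewhat closer to their neighbours than narrower peaks. The gap from a wide site to the nearest listed peak ran from 0.01 to 2701 kb with a median of 14.3 kb (quartiles 4.39 and 51.7 kb, exact 95% interval of the median 12.3 to 16.2 kb). For narrower peaks it had a median of 17.6 kb (quartiles 5.08 and 61.2 kb, interval 17 to 18.3 kb), so the ratio of medians was 0.82. A gap between edges is shortened by the width that chose the members. Between centres the medians were 16.7 kb for wide sites (14.7 to 18.4 kb) and 18.73 kb for narrower peaks (18.2 to 19.5 kb), intervals that overlap, with a ratio of 0.89. The gap to the farther of the 2 flanking peaks had medians of 64.6 kb for wide sites and 76.1 kb for narrower peaks. Within 10 kb of another peak were 42.9% of wide sites (451 of 1052, 39.9 to 45.9%) and 37.9% of narrower peaks (4361 of 11495, 37.0 to 38.8%). Within 1 kb the shares were 8.75% (7.11 to 10.6%) and 8.26% (7.76 to 8.77%), whose intervals overlap. Within each of the 4 large stretches the wide median gap between edges was also the shorter, but the 95% intervals overlapped in every one. The medians were 19.8 and 21.9 kb in names 1000 to 4146, and 15.5 and 17.5 kb in names 10007 to 16380. They were 9.90 and 11.1 kb in names 10000 to 14604, and 16.2 and 20.9 kb in names 10001 to 24057. In the last of these the intervals were 13.3 to 21.0 kb for wide sites and 19.6 to 22.3 kb for narrower peaks. Of the 3 shorter stretches with at least 10 wide sites, names 100 to 394 had the same order (3.21 and 5.11 kb), and names 1000 to 1692 (8.83 and 8.29 kb) and 1000 to 1543 (16.2 and 12.2 kb) the opposite one. With 1 library no test of these differences was made. The intervals cover counting error only and are too narrow where peaks cluster.

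**Figure D2:**
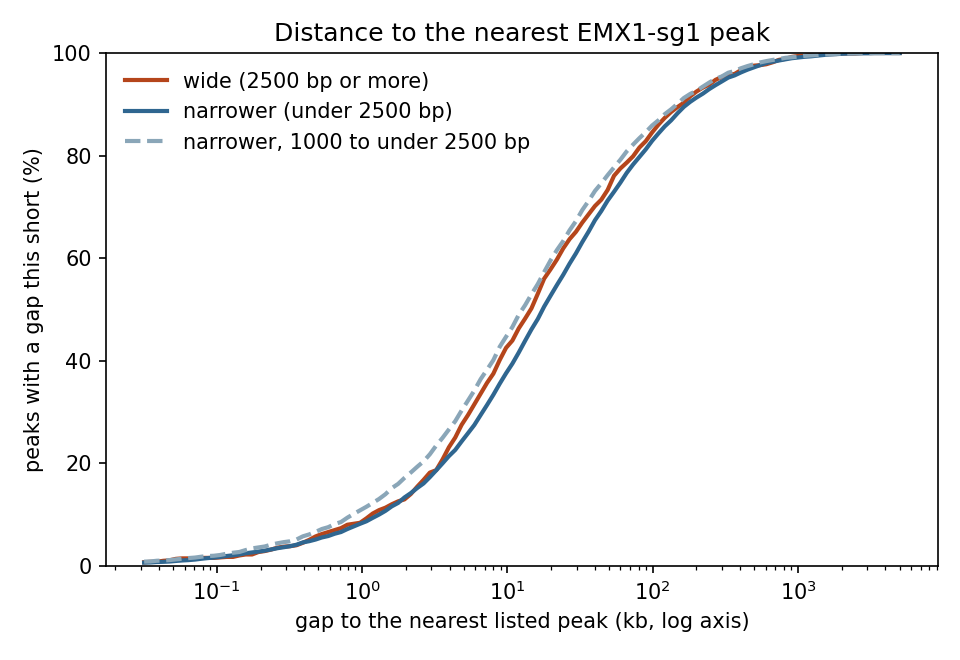
Share of peaks (%) whose gap to the nearest listed peak is at or below the distance on the log axis (kb), for 1052 wide sites, 11495 narrower peaks and, dashed, the 5310 narrower peaks of at least 1000 bp. At its median (14.3 kb) the wide curve lies left of that of all narrower peaks (17.6 kb) and right of the dashed one (12.9 kb). The curves cross elsewhere: at 0.129 kb the shares were 1.71% for wide sites and 2.03% for all narrower peaks. At 906 kb they were 99.24% for wide sites and 99.17% for the dashed curve.

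This order depended on which narrower peaks were set against the wide ones. Against the 5310 narrower peaks of at least 1000 bp, wide sites had the longer gap, 14.3 kb and 12.9 kb, and the same median of 35 peaks within 1 Mb. The gap did not shorten steadily with width. It had a median of 52.2 kb below 500 bp, 10.4 kb from 1000 to under 1500 bp and 18.68 kb from 2000 to under 2500 bp, and then 15.5, 14.8 and 9.52 kb in the 3 classes of wide sites. Peaks of 1000 to under 1500 bp thus had a shorter median gap than the wide sites as a whole, and the smallest peaks stood farthest apart. It also varied with score. Divided by score within each large stretch into 4 groups from low to high, wide sites had median gaps of 16.3, 22.1, 15.7 and 14.2 kb, and narrower peaks 22, 18.1, 16.1 and 20.3 kb. The wide median was the longer in group 2 (interval 14.9 to 33.4 kb, against 16.5 to 20.3 kb for narrower peaks). In group 4, which had the highest scores and held 600 of these wide sites, the wide median was the shorter. Its intervals were 11.9 to 16.7 kb for wide sites and 18.4 to 22.7 kb for narrower peaks, and they lay apart. In groups 1, 2 and 3 the intervals overlapped. All of them are too narrow where peaks cluster.

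**Figure D3:**
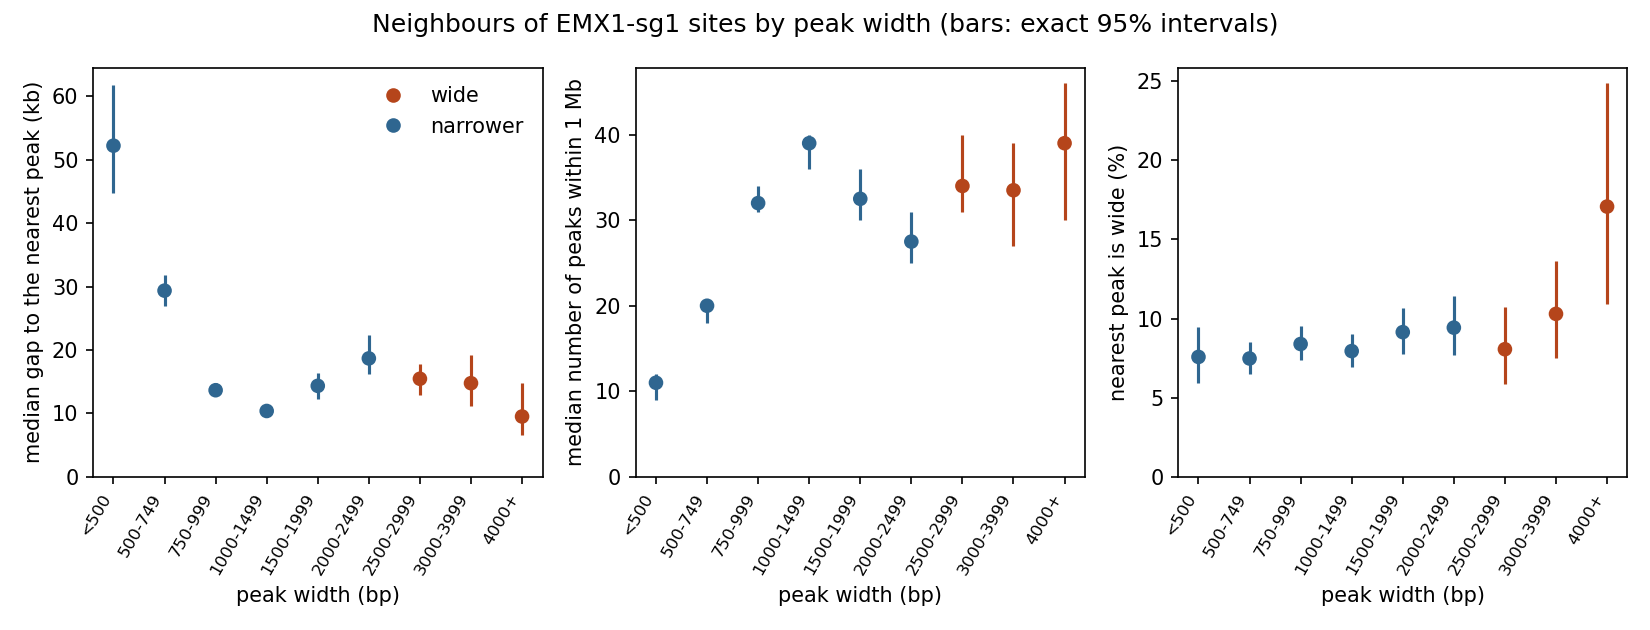
Median gap to the nearest peak (kb), median number of peaks within 1 Mb and share of peaks whose nearest neighbour is wide (%), by peak width (bp), with exact 95% intervals. Median gaps were 52.2 kb below 500 bp, 10.4 kb at 1000 to under 1500 bp and 9.52 kb at 4000 bp or more, and the share with a wide neighbour was 17.1% in the widest class.

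Local density followed the same pattern. A wide site had a median of 35 other peaks within 1 Mb on either side (quartiles 11 and 64, interval of the median 31 to 38), and a narrower peak 27 (quartiles 10 and 53, interval 27 to 28). In names 1000 to 4146 the order turned, with 21 for wide sites and 22 for narrower peaks, and in the other large stretches, in list order, the medians were 34 and 28, 53 and 44, and 26 and 22. The largest number around a wide site was 168, at chromosome 9 between 139605836 and 139609367 (3532 bp, score 84.41). No other peak lay within 1 Mb of 6 wide sites (0.57%, 0.21 to 1.24%) and of 101 narrower peaks (0.879%, 0.716 to 1.07%). The wide site most removed from any peak was on chromosome 1 between 82265756 and 82269595 (3840 bp, score 85.43), 2701 kb from the next. When all peaks were divided into 5 groups of near equal size by density, the wide share was 8.33% with 0 to 8 neighbours, 6.58% with 9 to 20, 7.13% with 21 to 38, 9.25% with 39 to 62 and 10.7% with 63 to 169 (9.50 to 12.0%). The least occupied stretches thus held more wide sites per peak than the group next to them (7.29 to 9.46% and 5.63 to 7.64%, whose intervals overlap). Among the wide sites width and density hardly went together (Spearman rho 0.01 over 1052 sites), against 0.20 over all 12547 peaks.

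Chromosomes differed in how often and where wide sites occurred. The wide share was highest on chromosome 8, with 75 of 597 peaks (12.6%, 10.0 to 15.5%), and lowest on chromosome 3, with 38 of 605 (6.28%, 4.48 to 8.52%). The median gap of wide sites was shorter than that of narrower peaks on 14 of the 16 chromosomes, and their median density was higher on 13, but on no chromosome did the 95% intervals of the median gaps lie apart. The gap ratio was lowest on chromosome 8, where wide sites had a median gap of 6.63 kb (interval 3.74 to 26.6 kb) and narrower peaks 26.6 kb (19.8 to 34.2 kb), with medians of 57 and 19.5 peaks within 1 Mb. Chromosome 8 also had 61.3% of its wide sites and 48.9% of its narrower peaks in the outer 10% of the span its peaks cover. Chromosome 5 had the next lowest ratio, with 12.8 kb for wide sites and 29.8 kb for narrower peaks. Chromosomes 20 and 21 went the other way: 17.7 kb for wide sites and 13.4 kb for narrower peaks on chromosome 20, and 26.6 kb and 12.8 kb on chromosome 21, where only 15 sites were wide and their median density was 9 against 48 for narrower peaks. Over all 16 chromosomes, 42.1% of wide sites (39.1 to 45.2%) and 41.5% of narrower peaks (40.6 to 42.4%) lay in the outer 10% of the span. Leaving out each chromosome in turn kept the ratio of median gaps between 0.80 and 0.85.

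**Figure D4:**
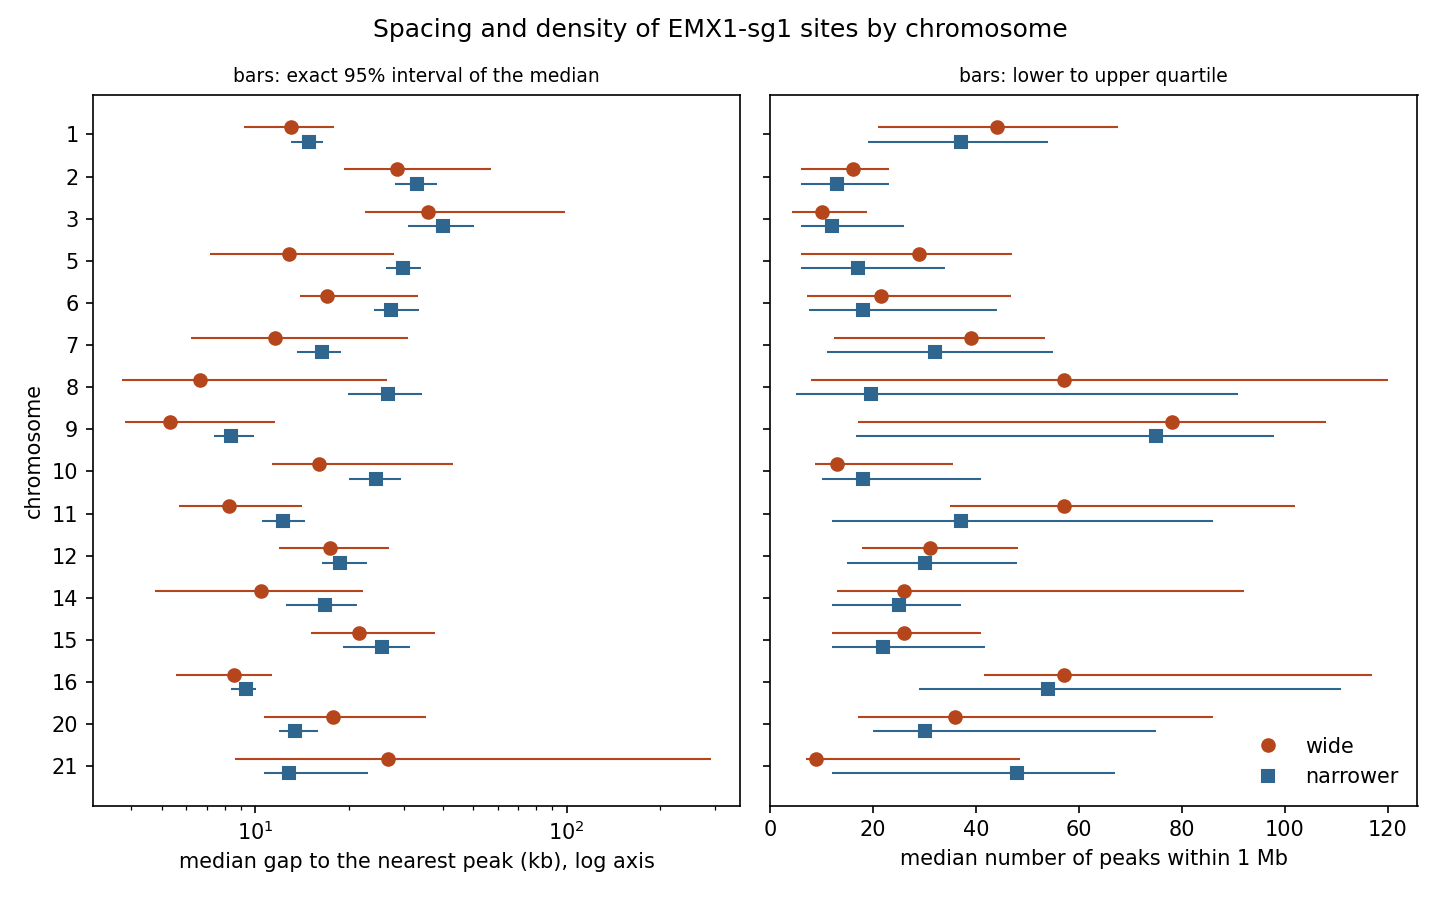
Median gap to the nearest peak (kb, log axis, bars showing the exact 95% interval) and median number of peaks within 1 Mb (bars from lower to upper quartile) for wide sites (circles) and narrower peaks (squares) on each of the 16 chromosomes. Wide sites had the shorter median gap on 14 chromosomes, with chromosomes 20 and 21 the exceptions, and the largest difference in density in their favour was on chromosome 8 (57 and 19.5).

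The share with a wide nearest neighbour was higher for wide sites than for narrower peaks in some large stretches and lower in others. The stretch shares have no intervals and rest on 203, 163, 128 and 472 wide sites, in list order. A difference between stretches was therefore not established. The nearest neighbour was itself wide for 9.98% of wide sites (105 of 1052, 8.24 to 12.0%) and for 8.20% of narrower peaks (943 of 11495, 7.71 to 8.72%), intervals that overlap and that both include the 8.38% of all peaks that are wide. In names 1000 to 4146 the share was 7.88% for wide sites and 9.35% for narrower peaks, and in names 10000 to 14604 it was 7.81% and 8.01%. In names 10007 to 16380 it was 12.3% and 9.09%, and in names 10001 to 24057 it was 9.96% and 7.32%. With peaks within 500 bp merged it was 9.76% for wide sites and 9.81% for narrower peaks. Among sites of 4000 bp or more the share was 17.1% (21 of 123, 10.9 to 24.9%), and among those under 3000 bp 8.06% (42 of 521, 5.87 to 10.7%). A wide peak lay within 10 kb of 9.03% of wide sites (7.37 to 10.9%) and of 5.21% of narrower peaks (4.81 to 5.63%). These intervals do not overlap, but the first is too narrow, since both sites of a close wide pair count. A peak of any width lay within 10 kb of 42.9% of wide sites and 37.9% of narrower peaks. The 10 kb share of wide peaks was not computed by stretch or with peaks merged. Of all peaks within 1 Mb, 11.5% were wide around wide sites and 9.34% around narrower peaks. These shares pool the neighbours of all sites, so a wide pair counts from both sides and crowded places weigh most. They have no intervals. Counted per site, 76.6% of wide sites (73.9 to 79.1%) and 75.4% of narrower peaks (74.6 to 76.2%) had a wide peak within 1 Mb, intervals that overlap. The nearest peak had a median width of 1084 bp beside wide sites (interval 1031 to 1139 bp) and 1012 bp beside narrower peaks (999 to 1026 bp). Its median score was 88.34 beside wide sites (85.23 to 90.94) and 85.37 beside narrower peaks (84.49 to 86.57), intervals that overlap.

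A small number of wide sites formed tight groups. With gaps under 10 kb between wide sites, 957 stood alone, 39 groups held 2 and 5 groups held 3 or more, together 95 sites. The largest group was on chromosome 8 between 145003409 and 145028388, where 5 wide sites followed each other, with widths of 2749, 2924, 3043, 3663 and 3542 bp and scores of 96.40, 88.88, 109.33, 138.46 and 189.30. About each of these 5 there were 123 to 125 peaks within 1 Mb. A group of 3 lay on chromosome 8 between 145740929 and 145755961, and 3 more such groups were found. That on chromosome 1 spanned 2230125 to 2248333, that on chromosome 10 spanned 77154320 to 77170107, and that on chromosome 11 spanned 118777581 to 118791086. The closest pair was in the chromosome 1 group, 28 bp apart, with sites of 3103 and 3807 bp that scored 133.16 and 110.71. The next closest pairs lay 140 bp apart on chromosome 11 (741.55 and 223.41), 181 bp apart on chromosome 6 between 1604127 and 1612955 (63.66 and 61.35), 206 bp apart in the larger chromosome 8 group and 252 bp apart on chromosome 7 between 5457724 and 5469813. The chromosome 7 pair joined sites of 4797 and 7041 bp, the longer being the widest of that chromosome, and left 252 bp between them uncovered.

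The other lists from 293FT cells did not enter the rule. One wide site overlapped a peak of the EMX1-sg3 list by at least 1 bp, that on chromosome 10 between 60026201 and 60029291 (3091 bp, score 231.72), which shared 1031 bp with an EMX1-sg3 peak of 1607 bp scoring 170.71. It had 1 other EMX1-sg1 peak within 1 Mb, 618.4 kb away. That is 1 of 1052 wide sites (0.0951%, 0.00241 to 0.528%), and 1 of 11495 narrower peaks overlapped an EMX1-sg3 peak, a peak on chromosome 2 between 73160521 and 73161509 (score 473.91) that was 989 bp wide and so was not a member. Within 10 kb of an EMX1-sg3 peak were 2 wide sites (0.190%, 0.0230 to 0.685%) and 71 narrower peaks (0.618%, 0.483 to 0.778%). No wide site and no narrower peak overlapped a peak of the no-sgRNA IP or of the input, which had 53 and 19 peaks on these chromosomes. The control and filter behind the EMX1-sg1 list are unknown. Whether shared peaks were removed beforehand cannot be told, so no conclusion is drawn from this absence. Only if no shared peaks had been removed would 0 of 1052 wide sites allow a share of up to 0.285% by the limit of 3 counts. By the exact interval it would be up to 0.350%, on the same condition. Of the wide sites 75.3% (72.6 to 77.9%) and of the narrower peaks 42.4% (41.5 to 43.3%) scored above 90.91, the highest score of the no-sgRNA IP, and 32.1% and 6.39% above 231.35, the highest of the input. In the 4 large stretches, in list order, the shares above 90.91 were 65.5%, 100%, 91.4% and 64.2% for wide sites and 33.7%, 69.7%, 48.1% and 34.7% for narrower peaks. Those above 231.35 were 9.36%, 95.1%, 50.8% and 13.1% for wide sites and 1.63%, 25.3%, 6.84% and 2.04% for narrower peaks. Score and width come from the same peak calls, so the contrast of wide and narrower shares is a description only. Whether the lists share a scale of scores is not stated, and read depth is unknown. Wide peaks were rare in those lists, counted here over all chromosomes: 1 of 853 for EMX1-sg3 (2685 bp, on chromosome 1 between 224199992 and 224202676), 0 of 63 for the no-sgRNA IP and 1 of 49 for the input (2611 bp, on chromosome 16 between 33973470 and 33976080). Median widths in those lists were 651, 599 and 579 bp in the same order, against 1032 bp for all EMX1-sg1 peaks. In the EMX1-sg1 list the wide share on the chromosomes left out was 9.89% (412 of 4167, 9 to 10.8%) on chromosomes 17, 19 and 22 and 9.41% (93 of 988, 7.66 to 11.4%) on chromosomes 4, 13 and 18, where median gaps over all peaks were 6.19 and 49.96 kb.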

How the data were processed

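Peak lists of 4 libraries of 293FT cells were used (EMX1-sg1 IP, EMX1-sg3 IP, no-sgRNA IP and input, 1 each), grouped from the labels. The submitters' processing notes name Bowtie, without a version, and hg19 among the builds. Peak names begin with MACS; no source used here gives the control, threshold or filter. Each deposited peak has a start, an end and a score, which is the authors' and whose column has no name. A sixth column has no name or stated meaning either. Starts were read as 0-based and are given 1-based. Depth is unknown.

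Members and comparisons were chosen with earlier results of these data known. From the positions, the gap between edges, peaks within 1 Mb (by centre), width and score of the nearest neighbour and overlap (1 bp) were computed with Python 3.11.15, pandas 2.3.3 and scipy 1.17.1. Shares have exact Clopper-Pearson 95% intervals and medians exact binomial ones. The functions were tested on simulated data and recovered 10 of 10 known answers. No test was made, since there was 1 library and peaks are not replicates.

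Sites named were the 10 highest-scoring, the 5 widest, the 5 closest pairs, the extremes in density and isolation, those overlapping other lists, those at the threshold and the widest of each chromosome. The stretches of peak numbers, groups with gaps under 10 kb and sites named from them, the width classes and the density groups were chosen after the values were seen. Stretches were built from peaks with 3 in the sixth column, which all 1052 wide sites had. The chromosome 2 peak shared by both EMX1 lists, whose name is out of order, was left out of the stretches by that rule. No hg19 genome or annotation was used here.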

Additional observations from a re-analysis of the deposited data

How the results depend on the processing

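No paired analysis was possible because each group was 1 library and no test was made. Values are ratios of wide sites to narrower peaks. Score groups in this section (4, low to high) were cut over all peaks of the 16 chromosomes, not within stretches as above. Scores may not be comparable between stretches, so these groups may mix different scales. The ratio of median gaps was 0.82, and turned to 1.12 against narrower peaks of at least 1000 bp. It was 1.19 and 1.03 in score groups 2 and 3. In the third group cut within stretches, the wide median was the shorter (15.7 and 16.1 kb). The density ratio of 1.3 was 0.88 and 1.1 in score groups 2 and 3, and 1.42 with peaks within 500 bp merged. Merging turned close peaks into wide sites (1188 wide sites in place of 1052), so the 1.42 is partly set by the merging. In the groups cut within stretches, median peaks within 1 Mb were 27 and 24, 21 and 24, 27 and 27, and 33 and 25, wide sites first. The intervals lay apart in group 4 (30 to 38 and 23 to 26) and overlapped in groups 1, 2 and 3. The density ratio was 1 against narrower peaks of at least 1000 bp and 0.95 in names 1000 to 4146. In those names the ratio of shares with a wide nearest neighbour was 0.84. That ratio, 1.22 over all peaks, was 2.07 with wide set at 3000 bp, 0.89 in score group 2, 0.995 with peaks merged and 0.975 in names 10000 to 14604.

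The score ratio of 1.82 was 2.02 with wide set at 3000 bp, 1.5 at scores of at least 100, 1.52 against narrower peaks of at least 1000 bp and 1.57 as the median of the chromosomes. In the 4 large stretches it was 1.45, 4.70, 2.72 and 1.47. Score and width come from the same peak calls, so these ratios are descriptions only. The ratio of the neighbours' scores, 1.03, was 0.98 at scores of at least 100 and 0.95 and 0.96 in score groups 3 and 4, and that of their widths, 1.07, was 0.94, 1.14 and 1.004 in groups 1, 2 and 4. The ratio of shares in the outer 10% of the span, 1.01, was 1.11 with peaks merged and 1.33 and 0.83 in groups 1 and 2. The ratio of flanks at which no peak number was skipped, 0.97, was 1.09, 1.09 and 1.13 in groups 1, 2 and 3. With peaks merged it was 0.90, from which nothing is concluded. A merged peak kept only its first number, so the flank after it counted as skipped by construction. There were 2060 wide sites at 2000 bp and 531 at 3000 bp. Overlap with the other lists was 2 with peaks merged and 2 within 10 kb. Of 132 alternatives 96 stayed within the interval or limit set for them, and some of these lay on the other side of 1 from the value over all peaks. The cause of these changes was not tested. The stretch values were chosen after seeing the data. With 1 library per group and no read counts, the spread between replicates and the depth are unknown.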
